A study of Mus musculus with 8 samples.

Results

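The genes described here encode the conjugating enzymes of phase II metabolism in mouse liver: the glutathione S-transferases, the UDP-glycosyltransferases and the sulfotransferases. They were taken by gene symbol, as every gene whose symbol on the array annotation begins with Gsta, Gstm, Gstk, Gsto, Gstp, Gstt, Gstz, Mgst, Ugt1, Ugt2, Ugt3 or Sult and that has a probe set of its own. This gave 48 of the 19938 genes measured. Another 17 genes of these families shared a probe set with a relative and were not analysed. The 8 Ugt1 genes that the array annotation names were among them, so the UGT1 family has no member here. The members fall into 2 alpha, 7 mu and 1 kappa class glutathione transferases, 9 cytosolic ones of the omega, pi, theta and zeta classes, 3 membrane-bound ones, 8 UGT2 genes, 2 UGT3 genes and 16 sulfotransferases.

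The samples were 4 livers of adult male mice labelled as a liver-specific knockout of Rictor (RKO), made with albumin-Cre and a Rictor allele flanked by loxP sites, and 4 livers of adult male control mice labelled wild type (WT), each taken here as 1 mouse. Albumin-Cre acts in hepatocytes, so other liver cells keep the gene. Whether the controls carried the floxed allele or the Cre is not stated in the labels, and neither are strain and age in weeks. All mice were fasted for 16 h and had free access to food for the 3 h before the liver was taken. Each liver has 1 Affymetrix Mouse Gene 1.0 ST array. Values below are RMA values on the log2 scale, and differences are RKO minus WT on that scale with n = 4 in each group.

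Phase II enzymes join a polar group to drugs, hormones, bile acids, bilirubin and reactive lipid products, which makes these compounds easier to excrete. Glutathione transferases use glutathione, UDP-glycosyltransferases use nucleotide sugars such as UDP-glucuronic acid, and sulfotransferases use the sulfate donor PAPS. In hepatocytes their genes are controlled by the nuclear receptors CAR and PXR, the aryl hydrocarbon receptor, NRF2 and hepatocyte factors, and several differ between male and female mice. Rictor is a subunit of mTOR complex 2, which phosphorylates Akt below the insulin receptor. The comparison asks how liver transcripts after refeeding depend on that complex.

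Array 1 of each group stood apart. On the first principal component over all single-gene probe sets, which held 35.8% of the variance, RKO arrays 2 to 4 lay between 17.3 and 19.3 and RKO array 1 at -13.1, beside WT arrays 2 to 4 at -14.5 to -12.6. WT array 1 lay at -1.2. Values are therefore given with all arrays and, where they depend on it, without these arrays. The Rictor probe set read 9.15, 9.51, 9.68 and 9.47 on RKO arrays 1 to 4, against 9.47, 9.28, 9.23 and 9.64 on WT arrays 1 to 4. RKO array 1 was thus the lowest of all. The means were 9.45 ± 0.22 in RKO and 9.40 ± 0.19 in WT livers (SD, n = 4 each), a difference of 0.045 (limma adjusted p = 0.936). Rictor transcript was therefore not seen to be lower in RKO livers. Which exons the probes cover was not checked, so this probe set does not settle whether the labels hold. Hepatocyte markers were bright in every liver, with list means from 13.81 to 13.82 in RKO and from 13.74 to 13.83 in WT livers over 7 measured markers. In whole liver, fewer cells of a type and less RNA per cell cannot be told apart.

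The transferases were among the bright genes of the liver. Of the 48 members 35 lay at or above the median level of all genes, 24 were in the top 10% and 8 in the top 1%, which were Gstp1, Mgst1, Gstm1, Gstk1, Ugt2b1, Ugt2b34, Ugt2b36 and Ugt3a2. At the other end 12 members were in the lowest 25%, and 9 of these were sulfotransferases. Arrays of this kind compress the differences of dim probe sets.

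With all 8 arrays no transferase gene differed between RKO and WT livers beyond the correction over all genes, and the means that differed most were lower in RKO. The count past an adjusted p of 0.05 was 0 of 48 members, where 0.0% of all genes passed in either direction (limma). At an unadjusted p under 0.05 there were 7 members with a lower mean in RKO, or 14.6%, against 6.61% of all genes. They were Ugt3a1, Gstk1, Gstm4, Gstm3, Gstm2, Gsta3 and Ugt2a3. Only Sult2b1 was on the higher side at this level, 2.08% of members against 3.84% of all genes. After another round of quantile normalisation the same count was 10 lower and 4 higher, against 5.82% and 4.99% of all genes. Over all 48 members 28 had a lower mean in RKO livers, or 58.3%, against 56.9% of all genes, and the median difference was -0.06 against -0.02 over all genes. By the share of lower means and the median difference the set thus stood close to the background. The share lower at an unadjusted p under 0.05 lay above it, 14.6% against 6.61%, and was not tested for the set. All genes are a dimmer background than these members. With dim probe sets left out, 6 of 35 members and 972 of 9904 genes were lower at that level, and 0 and 611 higher. With arrays centred on their medians, 4 of 48 members and 814 of 19938 genes were lower, and 1 and 907 higher. Ugt3a1 was the 1 member whose group means lay at least 1.5-fold apart, as did 0.597% of all genes.

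**Figure D1:**
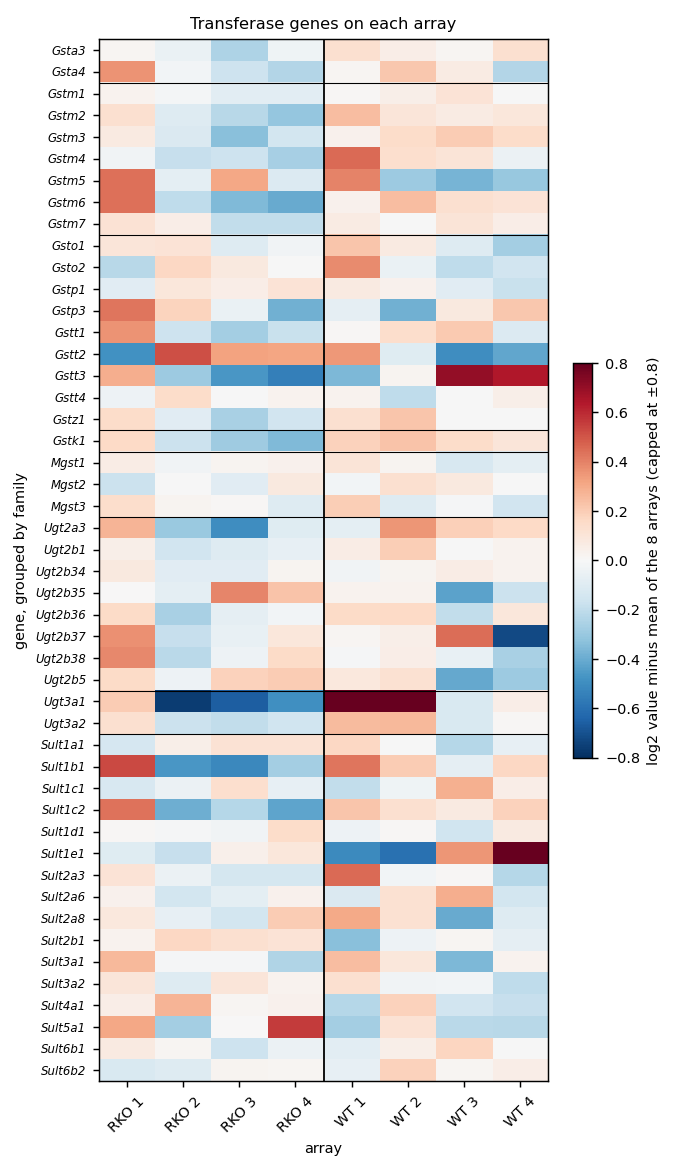
Each row is a transferase gene and each column an array, RKO arrays 1 to 4 left of the line and WT arrays 1 to 4 right of it. Colour is the log2 RMA value minus the gene's mean over the 8 arrays, and black horizontal lines separate the families. The mu class genes Gstm2, Gstm3 and Gstm6 are blue on RKO arrays 2 to 4, while RKO array 1 is red or near white in these rows.

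RKO array 1 often lay on the side of the WT group, and WT array 1 less clearly on the side of the RKO group. On RKO array 1 the value of 32 of the 48 members was nearer to the WT mean than to the mean of the other RKO arrays, and this held for 62.3% of all genes. On RKO arrays 2 to 4 the same count was 14, 14 and 12 of 48 members, against 47.8%, 37.8% and 41.8% of all genes. WT array 1 was nearer to the RKO mean for 27 members, or 56.2%, which was near the 52.3% of all genes, and the other WT arrays for 15 to 20 members. Among the 8 members with an unadjusted p under 0.05, RKO array 1 was nearer to the WT mean in 7, and WT array 1 nearer to the RKO mean in 1. These 8 were picked by p on the same arrays. The share among all genes at that level was not counted, so the 7 is not read as a trait of the members. Without RKO array 1 the count of members past the threshold was 7, all lower: Gstk1, Sult1c2, Sult1b1, Gstm6, Ugt3a1, Ugt2a3 and Gstm3 (limma adjusted p from 0.00576 to 0.0404), where 3.3% of all genes were lower and 1.1% higher. With weights for the arrays, estimated by limma, Ugt3a1, Gstk1 and Gstm3 passed as lower, against 2.23% of all genes lower and 1.31% higher. Without WT array 1 no member passed, where 0.231% of all genes passed as higher and 0.0652% as lower (limma; 10 members had an unadjusted p under 0.05, against 12.2% of all genes). Without both arrays numbered 1 the count was 8 lower and 1 higher, against 5.08% and 2.39% of all genes. At an unadjusted p under 0.05 the background in either direction was 19.9% with array weights, 17.9% without RKO array 1, 20.2% without both, 6.25% without RKO array 3, 7.27% without RKO array 4, 8.63% with arrays centred on their medians and 10.5% with a replicate block. The members counted at that level were 18, 18, 22, 4, 5, 5 and 11 in the same order. Which arrays to leave out together was decided once their position was known, and a call in that fit is no independent test. Leaving out each array in turn was planned, but the fit without RKO array 1 is given gene by gene because of that array's position. Leaving out the RKO array nearest to WT widens the difference of genes in which it lay on the WT side. A call without RKO array 1 is therefore no independent test either.

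**Figure D2:**
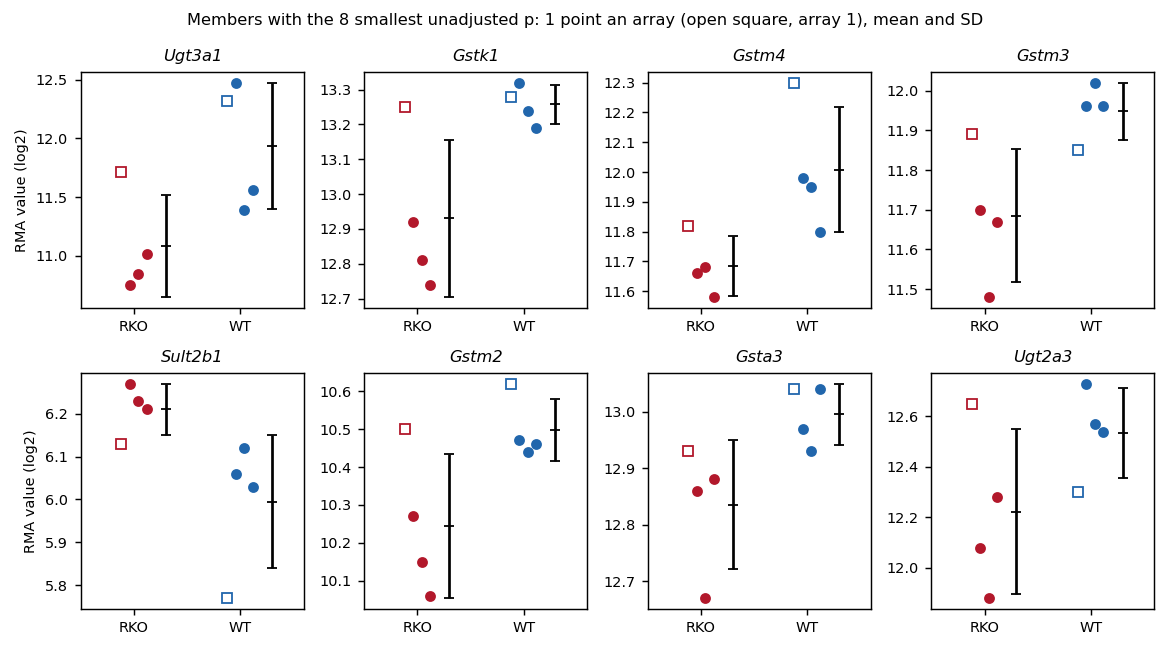
RMA values (log2) of the 8 members with the smallest unadjusted p, 1 point an array, RKO left and WT right, with the mean and SD beside the points and array 1 of each group as an open square. In Gstk1 the RKO arrays 2 to 4 read 12.74 to 12.92 and all other arrays at least 13.19. The vertical axes differ between panels and do not start at 0.

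Among the alpha class, whose members conjugate electrophiles and reduce lipid peroxides, both measured genes had a slightly lower mean in RKO livers. Gsta3, which in the mouse conjugates the epoxide of aflatoxin, read 12.93, 12.86, 12.67 and 12.88 on RKO arrays 1 to 4, against 13.04, 12.97, 12.93 and 13.04 on WT arrays 1 to 4. The groups met at RKO array 1 and WT array 3, and the difference was -0.16 (SE 0.07; limma adjusted p = 0.431; exact permutation p = 0.0571). Gsta4, which acts on the lipid peroxidation product 4-hydroxynonenal, read 10.53, 10.15, 10.01 and 9.94 in RKO, against 10.19, 10.39, 10.24 and 9.94 in WT livers, a difference of -0.03 (SE 0.14; limma adjusted p = 0.958). These groups overlapped throughout, and the sign of the Gsta4 difference turned when RKO array 3, RKO array 4 or WT array 2 was left out (0.02, 0.04 and 0.03).

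The promoter windows of the members, 250 bases before to 50 after the transcript start in the RefSeq set of build GRCm38.p6, were searched on both strands for 3 motifs: TGACNNNGC, the core of the antioxidant response element that NRF2 binds, TGTTTAC, which forkhead factors such as FoxO1 bind, and the palindromic HNF1 motif. Of the members 44 had a window, and Gsta4, Gstt2, Sult4a1 and Ugt3a2 had none. The first motif was found in 4 members, Gsta3, Gstm5, Gstm7 and Mgst1, and in 14.0% of all genes with a window. The forkhead motif was found in another 4, Ugt2b35, Ugt2b37, Ugt2b38 and Sult1d1, against 4.05% of genes, and the HNF1 motif in 0 members and 3 genes in all. A match is a description of these letters and not a binding site. The Gsta3 window (chr1:21240335-21240634, plus strand) is shown 5′ to 3′ because it holds the antioxidant motif in a bright member, with the match in capitals.
Gsta3: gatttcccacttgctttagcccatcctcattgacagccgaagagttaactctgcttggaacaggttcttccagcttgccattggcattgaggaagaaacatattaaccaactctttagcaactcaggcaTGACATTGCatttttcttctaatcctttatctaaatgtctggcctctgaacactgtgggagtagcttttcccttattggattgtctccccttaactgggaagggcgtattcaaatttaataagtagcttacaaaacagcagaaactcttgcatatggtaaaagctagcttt

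Most mu class genes had a lower mean in RKO livers. These enzymes, encoded side by side in one cluster, conjugate epoxides and other electrophiles. Of the 7 genes 6 had a lower mean, 0 passed the threshold and the median difference was -0.25, against -0.02 over all genes. Gstm4 read 11.82, 11.66, 11.68 and 11.58 in RKO, against 12.30, 11.98, 11.95 and 11.80 in WT livers. Only RKO array 1 reached into the WT range, and the difference was -0.32 (SE 0.10; 95% interval -0.55 to -0.10; limma adjusted p = 0.291). Gstm3 read 11.89, 11.70, 11.48 and 11.67 in RKO, against 11.85, 11.96, 12.02 and 11.96 in WT livers, a difference of -0.26 (SE 0.09; limma adjusted p = 0.324). RKO array 1 lay just above WT array 1, and the other RKO arrays lay below every WT array. The other probe set of Gstm3, dimmer than this one, gave 10.52, 10.46, 10.24 and 10.07 in RKO, against 10.47, 10.75, 11.32 and 11.04 in WT livers, a larger difference of -0.57 (SE 0.16; limma adjusted p = 0.237), so the size of the Gstm3 difference is not settled. Without RKO array 1 the brighter set gave -0.33 (limma adjusted p = 0.0404).

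Gstm2 and Gstm6 followed the same array pattern. Gstm2 read 10.50, 10.27, 10.15 and 10.06 in RKO, against 10.62, 10.47, 10.44 and 10.46 in WT livers, a difference of -0.25 (SE 0.11; limma adjusted p = 0.406). Gstm6 read 10.83, 10.19, 10.04 and 9.99 in RKO, against 10.43, 10.64, 10.52 and 10.50 in WT livers. RKO array 1 was the highest of all 8 arrays for Gstm6, so that its difference was -0.26 with all arrays and -0.45 without that array (limma adjusted p = 0.587 and 0.0186). Gstm1, the brightest of the class, read 13.44, 13.40, 13.33 and 13.33 in RKO, against 13.42, 13.46, 13.52 and 13.41 in WT livers, a difference of -0.08 with a 95% interval from -0.20 to 0.05 (limma adjusted p = 0.681). Gstm7 differed by -0.11. Gstm5, at 8.02 the dimmest of the class, had the opposite sign: 8.46, 7.94, 8.33 and 7.91 in RKO, against 8.42, 7.73, 7.65 and 7.72 in WT livers. WT array 1 lay far above the other WT arrays, and the difference was 0.28 with all arrays (SE 0.17; limma adjusted p = 0.604) and 0.46 without WT array 1 (limma adjusted p = 0.175).

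Promoter windows of 2 mu class genes whose means differed in opposite directions are set side by side. The Gstm5 window (chr3:107895604-107895903, plus strand) holds the antioxidant motif, shown in capitals, and the Gstm3 window (chr3:107969125-107969424, minus strand) holds none of the 3 motifs. Of the 6 mu class genes with a lower mean, Gstm7 alone held a motif.
Gstm5: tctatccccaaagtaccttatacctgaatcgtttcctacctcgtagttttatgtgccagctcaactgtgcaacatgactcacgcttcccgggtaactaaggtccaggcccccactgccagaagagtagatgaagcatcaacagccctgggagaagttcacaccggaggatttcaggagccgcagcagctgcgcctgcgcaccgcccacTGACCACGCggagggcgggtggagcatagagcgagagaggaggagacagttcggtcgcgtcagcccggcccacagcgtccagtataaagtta
Gstm3: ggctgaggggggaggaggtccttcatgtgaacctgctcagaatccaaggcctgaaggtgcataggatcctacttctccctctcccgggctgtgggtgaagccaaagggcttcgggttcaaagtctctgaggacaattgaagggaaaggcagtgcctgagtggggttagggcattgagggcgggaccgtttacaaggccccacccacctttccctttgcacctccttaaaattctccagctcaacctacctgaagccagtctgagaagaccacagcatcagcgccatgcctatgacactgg

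Gstk1 had the second smallest p of the members. Its product, the kappa class transferase, is found in mitochondria and peroxisomes. It read 13.25, 12.92, 12.81 and 12.74 on the RKO arrays, against 13.28, 13.32, 13.24 and 13.19 on the WT arrays, so that 3 RKO livers lay below every WT liver and the fourth inside the WT range. The means were 12.93 ± 0.23 in RKO and 13.26 ± 0.06 in WT livers (SD, n = 4 each), 1.26-fold higher in WT. The difference of -0.33 (SE 0.10; 95% interval -0.54 to -0.12) had a limma adjusted p of 0.257 and an exact permutation p of 0.0857, where 0.0286 is the smallest that 4 arrays against 4 can give. Without RKO array 1 it was -0.44 (SE 0.07; limma adjusted p = 0.00576).

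The other cytosolic glutathione transferases went both ways, with 6 of 9 means higher in RKO livers, a median difference of 0.04 and 0 past the threshold. The theta class genes Gstt3 and Gstt2, at the ends of one cluster, had the largest differences of the group, in opposite directions. Gstt3 read 11.16, 10.58, 10.40 and 10.32 in RKO, against 10.51, 10.89, 11.57 and 11.51 in WT livers, a difference of -0.50 (SE 0.23; limma adjusted p = 0.459). Gstt2 read 9.97, 10.97, 10.78 and 10.77 in RKO, against 10.80, 10.36, 9.96 and 10.04 in WT livers, a difference of 0.33 (SE 0.22; limma adjusted p = 0.621). In both genes array 1 of each group lay inside the range of the other group. Without both arrays numbered 1 the groups did not overlap, because the arrays left out were those that had lain in the other group. The share of all genes without overlap in that subset was not counted. The differences there were -0.89 for Gstt3 and 0.72 for Gstt2 (limma adjusted p = 0.00368 and 0.00224, in the fit chosen after the data had been seen). The 2 other theta genes of that cluster gave -0.13 for Gstt1 and 0.07 for the dim Gstt4.

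Gstp1, the pi class enzyme that is abundant in male mouse liver, was the brightest member. It read 13.74, 13.92, 13.88 and 13.94 in RKO, against 13.90, 13.86, 13.74 and 13.65 in WT livers, a difference of 0.08 with a 95% interval from -0.07 to 0.23 (limma adjusted p = 0.725). The groups overlapped. Gstz1, which isomerises maleylacetoacetate in tyrosine breakdown, read 12.58, 12.34, 12.17 and 12.28 in RKO, against 12.56, 12.65, 12.43 and 12.43 in WT livers, a difference of -0.17 (SE 0.09; limma adjusted p = 0.533). RKO array 1 lay within the WT range and the other RKO arrays below it. Gsto1 and Gsto2, omega class enzymes that reduce dehydroascorbate, differed by 0.04 and 0.02, and Gstp3 by 0.08.

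The membrane-bound transferases differed little. Mgst1, an enzyme of the endoplasmic reticulum and mitochondria with glutathione peroxidase activity, read 13.70, 13.61, 13.66 and 13.67 in RKO, against 13.74, 13.66, 13.51 and 13.56 in WT livers. Its difference was 0.04 with a 95% interval from -0.10 to 0.18 (limma adjusted p = 0.874). Mgst2 and Mgst3, which act on peroxides and leukotrienes, differed by -0.09 and 0.03 (limma adjusted p = 0.713 and 0.939), with 5.71 to 5.96 in RKO and 5.86 to 6.01 in WT livers for Mgst2, and 7.81 to 8.05 in RKO and 7.76 to 8.11 in WT livers for Mgst3. The ranges overlapped in all 3 genes, and the sign of Mgst3 turned without RKO array 1 (-0.01) or WT array 4 (-0.01).

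**Figure D3:**
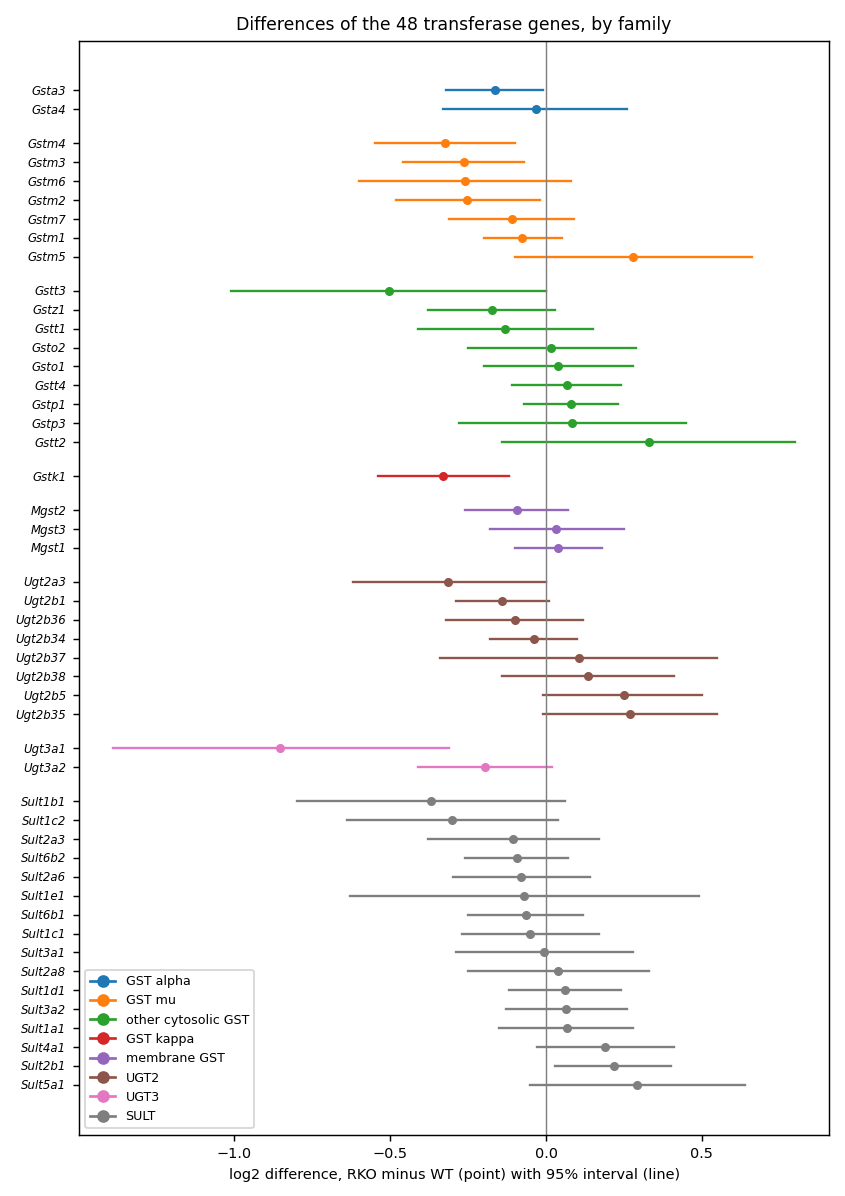
Log2 difference, RKO minus WT, of each of the 48 genes (points) with the 95% interval from the limma fit (lines), grouped and coloured by family and ordered within each. Ugt3a1 at -0.85 lies farthest from 0, and 6 of the 7 mu class genes lie left of 0. The intervals are not corrected for the number of genes.

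The UGT3 genes carried the largest difference of the set. In humans UGT3A1 transfers N-acetylglucosamine, not glucuronic acid, to bile acids and steroids. Ugt3a1 read 11.71, 10.75, 10.85 and 11.02 in RKO, against 12.32, 12.47, 11.39 and 11.56 in WT livers. The WT arrays formed a high pair and a lower pair, and RKO array 1 lay above the lower pair while the other RKO arrays lay below all WT arrays. The means were 11.08 ± 0.43 in RKO and 11.94 ± 0.54 in WT livers (SD, n = 4 each), 1.81-fold higher in WT, with a difference of -0.85 (SE 0.25; 95% interval -1.39 to -0.31; limma adjusted p = 0.247; exact permutation p = 0.0857). Weighting the arrays gave -1.09 (limma adjusted p = 0.025), and leaving out RKO array 1 gave -1.06 (limma adjusted p = 0.0218). Its neighbour Ugt3a2 read 13.16, 12.86, 12.83 and 12.87 in RKO, against 13.28, 13.29, 12.91 and 13.04 in WT livers, a difference of -0.20 (SE 0.10; limma adjusted p = 0.508). Arrays 1 and 2 were also the high pair among its WT arrays, and RKO array 1 was again the highest of its group. Probe sequences were not used here, so signal that near-identical relatives may share in such pairs cannot be told apart. The Ugt3a1 promoter window (chr15:9279579-9279878, plus strand) is given because the gene differed most. It holds none of the 3 motifs and so has no capitals.
Ugt3a1: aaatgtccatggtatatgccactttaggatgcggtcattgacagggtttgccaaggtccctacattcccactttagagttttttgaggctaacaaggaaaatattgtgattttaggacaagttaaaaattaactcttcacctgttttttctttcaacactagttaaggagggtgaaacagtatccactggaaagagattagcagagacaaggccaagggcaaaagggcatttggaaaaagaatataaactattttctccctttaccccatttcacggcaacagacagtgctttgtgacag

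The UGT2 enzymes, which add glucuronic acid to steroids, bile acids and drugs, were split evenly, with 4 of 8 means higher and 4 lower, a median difference of 0.03 and 0 past the threshold. Ugt2a3 read 12.65, 12.08, 11.88 and 12.28 in RKO, against 12.30, 12.73, 12.57 and 12.54 in WT livers, a difference of -0.31 (SE 0.14; limma adjusted p = 0.453) that was -0.46 without RKO array 1 (limma adjusted p = 0.0397). RKO array 1 lay inside the WT range and WT array 1 just above RKO array 4. On the higher side, Ugt2b35 read 11.28, 11.20, 11.67 and 11.51 in RKO, against 11.31, 11.31, 10.85 and 11.11 in WT livers, a difference of 0.27 (SE 0.13; limma adjusted p = 0.476). Ugt2b5 read 12.44, 12.25, 12.47 and 12.49 in RKO, against 12.37, 12.41, 11.88 and 12.00 in WT livers, a difference of 0.25 (SE 0.12; limma adjusted p = 0.470). WT arrays 3 and 4 were the low ones in both genes, and the other WT arrays lay within the RKO range. The Ugt2b35 window (chr5:87000610-87000909, plus strand) is shown for its forkhead motif, read on the reverse strand and given in capitals.
Ugt2b35: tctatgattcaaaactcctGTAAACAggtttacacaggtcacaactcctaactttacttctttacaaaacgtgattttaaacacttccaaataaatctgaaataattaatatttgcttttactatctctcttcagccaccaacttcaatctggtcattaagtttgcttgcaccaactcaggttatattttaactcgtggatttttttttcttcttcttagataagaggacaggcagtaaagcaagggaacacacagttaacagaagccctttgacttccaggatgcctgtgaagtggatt

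The brightest UGT2 genes differed less. Ugt2b1 read 13.12, 12.92, 12.97 and 13.01 in RKO, against 13.13, 13.27, 13.07 and 13.10 in WT livers, a difference of -0.14 (SE 0.07; limma adjusted p = 0.498). RKO array 1 alone lay in the WT range. Ugt2b34 read 13.15, 12.98, 12.98 and 13.09 in RKO, against 13.04, 13.09, 13.13 and 13.10 in WT livers, a difference of -0.04 with a 95% interval from -0.18 to 0.10 (limma adjusted p = 0.880). The remaining Ugt2b36, Ugt2b37 and Ugt2b38 differed by -0.10, 0.11 and 0.14, with overlapping groups. The median of the family turned to -0.03 without both arrays numbered 1.

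**Figure D4:**
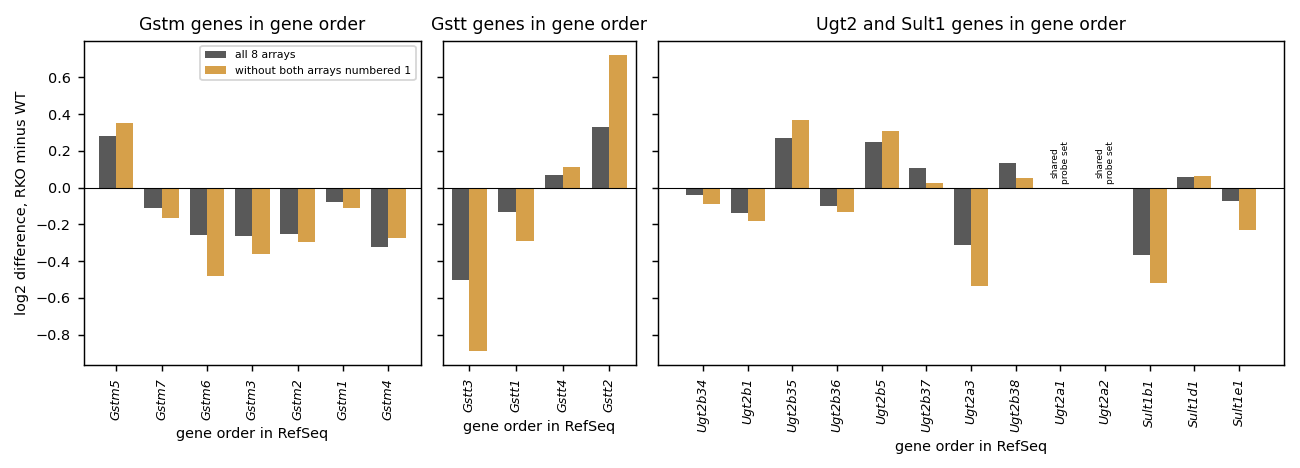
Log2 difference, RKO minus WT, of neighbouring genes in RefSeq gene order for the Gstm, Gstt and Ugt2 with Sult1 clusters, with all 8 arrays (grey bars) and without both arrays numbered 1 (ochre bars). Each cluster holds genes of both signs, as for Gstt3 at -0.50 and Gstt2 at 0.33 at the ends of theirs. Ugt2a1 and Ugt2a2 share a probe set and have no bar. The Gstm3 bars are from the brighter of its 2 probe sets, whose place in the genome was not checked.

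Neighbours in a cluster did not all differ in the same direction, and none passed with all arrays. Whether position plays a part was not tested. In RefSeq gene order the Ugt2 genes are followed by Sult1b1, Sult1d1 and Sult1e1, and along this run of 11 measured genes 5 means were higher and 6 lower in RKO livers. Ugt2a3, at -0.31, lies between Ugt2b37 at 0.11 and Ugt2b38 at 0.14. In the mu cluster the gene at one end, Gstm5, was the one with a higher mean.

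The sulfotransferases gave 7 higher and 9 lower means with a median of -0.03, and the median was 0.01 after another quantile normalisation, so no direction of the family is given. None of the 16 passed the threshold (limma; 1 had an unadjusted p under 0.05). Sult1b1, which sulfates phenols and thyroid hormones, read 9.13, 8.14, 8.09 and 8.33 in RKO, against 9.03, 8.81, 8.53 and 8.77 in WT livers. Sult1c2 read 7.90, 7.08, 7.24 and 7.05 in RKO, against 7.69, 7.60, 7.54 and 7.65 in WT livers. In both genes RKO array 1 was the highest array of all and the other RKO arrays lay below every WT array. The differences were -0.37 (SE 0.20) for Sult1b1 and -0.30 (SE 0.16) for Sult1c2 with all arrays (limma adjusted p = 0.526 and 0.512), and -0.60 and -0.50 without RKO array 1 (limma adjusted p = 0.0175 and 0.00978).

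Epcam, a marker of bile duct cells, had a like order of RKO arrays, with 7.03, 6.21, 6.31 and 6.06 in RKO against 6.82, 6.85, 7.07 and 6.72 in WT livers (-0.46; limma adjusted p = 0.354, and 0.00545 without RKO array 1). Epcam is given in full because of that order, and Pkhd1 had a smaller p (-0.405; limma adjusted p = 0.227). Of the 6 measured bile duct markers 4 had a lower mean in RKO, and Krt7 and Krt19 had a higher one (0.11 and 0.02). With all arrays 0 passed. Without RKO array 1 Pkhd1 and Epcam passed as lower, as did 3.3% of all genes. RKO array 1 lay within the WT range of Epcam and the other RKO arrays below it. The mean level of that list was 6.85 to 7.30 on RKO and 6.98 to 7.41 on WT arrays. Kupffer cell markers had a higher mean in 5 of 6 genes, with list means of 9.33 to 10.43 on RKO and 9.14 to 9.89 on WT arrays, and none passed (limma; 0 had an unadjusted p under 0.05). Alas2, the 1 red blood cell marker measured, read 10.89, 10.01, 10.02 and 10.06 in RKO, against 10.29, 10.91, 10.79 and 10.41 in WT livers. RKO array 1 was near the top of the WT range and the other RKO arrays lay below it, with a difference of -0.35 (limma adjusted p = 0.544, and 0.0387 without RKO array 1). All 4 measured lymphocyte markers had a lower mean, with list means of 6.17 to 6.46 on RKO and 6.23 to 6.71 on WT arrays, and none passed (limma; 1 had an unadjusted p under 0.05). The part of these cells in the member values was not tested.

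Sult2b1, which sulfates cholesterol and oxysterols, was the 1 member whose groups did not overlap, where 1.81% of all genes did not overlap on the higher side and 2.61% on the lower. It read 6.13, 6.27, 6.23 and 6.21 in RKO, against 5.77, 6.06, 6.12 and 6.03 in WT livers, a difference of 0.22 (SE 0.09; limma adjusted p = 0.375; exact permutation p = 0.0286). The probe set is dim, and RKO array 1 and WT array 3 nearly met. Sult5a1 read 9.16, 8.58, 8.86 and 9.41 in RKO, against 8.58, 8.97, 8.64 and 8.63 in WT livers, a difference of 0.29 (SE 0.16; limma adjusted p = 0.533). The RKO arrays spread over a wider range that held all WT values.

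The bright sulfotransferases did not pass either. Sult2a8, which in mouse liver sulfates bile acids, read 12.47, 12.32, 12.24 and 12.59 in RKO, against 12.69, 12.51, 11.98 and 12.28 in WT livers, a difference of 0.04 with a 95% interval from -0.25 to 0.33 (limma adjusted p = 0.947). Sult1d1, a catecholamine sulfotransferase of the mouse, read 11.56, 11.54, 11.52 and 11.70 in RKO, against 11.51, 11.56, 11.39 and 11.62 in WT livers, a difference of 0.06 (SE 0.08; limma adjusted p = 0.849). Both pairs of groups overlapped. The estrogen sulfotransferase gene Sult1e1 was dim in all livers, at 4.44 to 4.72 in RKO and 4.03 to 5.52 in WT livers, and WT array 4 was its highest array. Sult3a1 and Sult3a2, which are typical of female mouse liver, averaged 3.36 and 3.13 over the 8 arrays of these males, in the lowest 1% of genes, and differed by -0.01 and 0.06 (limma adjusted p = 0.993 and 0.854).

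Of the 21 members outside the rule for naming, the differences lay between -0.26 and 0.19 and the smallest limma adjusted p was 0.406, for Gstm2. Those not yet given were Sult1a1 (0.07), Sult4a1 (0.19), Sult1c1 (-0.05), Sult2a3 (-0.11), Sult2a6 (-0.08), Sult6b1 (-0.06) and Sult6b2 (-0.09). Sult1a1 is a bright phenol sulfotransferase with a mean of 11.31, and the others averaged at most 5.74.

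Genes that supply the cofactors, export the conjugates or control the transferases were read in 8 lists, of which 76 genes were measured. None of them passed with all arrays (limma; the smallest adjusted p was 0.291, and 8 had an unadjusted p under 0.05). At that level were 3.84% of all genes on the higher side and 6.61% on the lower, so the count of 8 is no excess. In glutathione supply 6 of 10 means were higher, with a median of 0.02. Gsr, glutathione reductase, read 12.04, 12.03, 12.22 and 12.06 in RKO, against 11.37, 11.37, 12.01 and 12.02 in WT livers, a difference of 0.40 (SE 0.15; limma adjusted p = 0.352). All RKO arrays lay above all WT arrays, with WT arrays 3 and 4 close behind, and 1.81% of all genes did not overlap on that side. Oplah, which recycles 5-oxoproline, differed by 0.26 (limma adjusted p = 0.418). Gclm, the modifier subunit of the enzyme that starts glutathione synthesis, read 12.72, 12.48, 12.45 and 12.43 in RKO, against 12.74, 12.71, 12.65 and 12.68 in WT livers. RKO array 1 lay in the WT range and the others below it, and the difference was -0.18 (limma adjusted p = 0.426, and 0.0468 without RKO array 1). Gclm lies outside the naming rule and was chosen after its values were seen. In supply of UDP-glucuronate the largest were Uxs1 at -0.15 and Slc35b1 at 0.13 among 7 genes, and in supply of PAPS Bpnt2 at -0.29 and Bpnt1 at -0.15, nucleotidases of the sulfation pathway, among 8 genes with a median of -0.07. Bpnt2 passed without RKO array 1 (-0.42; limma adjusted p = 0.0384).

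Exporters of conjugates gave 6 higher means of 9 and a median of 0.05. The pair with the smallest p was Abcb4, the canalicular phospholipid transporter, at 0.20 and Abcc6 at 0.21 (limma adjusted p = 0.501 and 0.636). Among other conjugating enzymes, Nnmt, which methylates nicotinamide, read 11.61, 11.67, 11.46 and 11.40 in RKO, against 11.91, 12.07, 11.73 and 11.68 in WT livers. All its RKO arrays lay below all WT arrays, but RKO array 2 at 11.67 nearly met WT array 4 at 11.68. On the lower side 2.61% of all genes did not overlap. The Nnmt difference was -0.32 (SE 0.10) with a limma adjusted p of 0.291, or 0.0374 when arrays were weighted. Inmt, an N-methyltransferase of indoles, differed by -0.33 (limma adjusted p = 0.565).

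Nfe2l2, which encodes NRF2, read 11.94, 11.54, 11.84 and 11.63 in RKO, against 12.09, 11.98, 11.92 and 12.11 in WT livers. Only RKO array 1 lay inside the WT range, and the difference was -0.29 (SE 0.10) with a limma adjusted p of 0.313, or 0.0431 when RKO array 1 was left out. In that list of NRF2 regulators and targets 7 of 10 means were lower with a median of -0.05, and Me1, malic enzyme, differed by -0.41 (limma adjusted p = 0.544). Of the 13 receptors and hepatocyte factors 8 had a lower mean, led by Hnf4a at -0.13 and Arnt at -0.20 (limma adjusted p = 0.486 and 0.491). The cytochrome genes that CAR, PXR and the other receptors control gave 8 lower means of 11 and a median of -0.08. Cyp2b10, the classic CAR target, read 8.51, 8.75, 9.46 and 8.19 in RKO, against 8.81, 9.51, 9.25 and 10.01 in WT livers, a difference of -0.67 (SE 0.27; limma adjusted p = 0.388), and Cyp2b13 differed by -0.17 near the bottom of the scale (limma adjusted p = 0.399). The Cyp2b10 groups overlapped, with RKO array 3 above WT array 1.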

How the data were processed

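The deposited table gives log2 values, 35556 probe sets by 8 arrays. Per the submitters' processing notes the authors used Affymetrix Expression Console, RMA and Partek. No order, version or genome build is stated, and the log2 base was inferred from the range. Array medians were 6.90 to 7.03. Precision is limited by the number of arrays.

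Probe sets with 1 symbol numbered 21789, with several 1621 and with none 12146. The brightest set represents each of 19938 genes. RKO was compared with WT in limma 3.58.1 (R 4.3.3; lmFit, eBayes with trend, two-sided) with Benjamini-Hochberg adjustment, and a gene passes below 0.05. Exact permutation tests are two-sided. The fit was tested on simulated data with independent noise for each gene and no array set apart. That simulation does not cover data with an array such as RKO array 1. If replicates are not separate mice, p-values cover technical spread only.

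Members, lists and tests were chosen with earlier results of these data known. Full values are given, per family, for the 2 brightest and the 2 smallest p, and for the 4 largest differences each way. Of these, Mgst2 and Mgst3 are given by range only. Other members are named to account for all, and Gstm2 and Gstm6 in full after their values were seen. Each of 8 gene lists gave its pair of smallest p. Protein identities, planned for naming, were not used here. Promoters come from RefSeq, GRCm38.p6. Alternatives were array weights, no trend, other normalisation, filters, a replicate block and arrays left out.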

Additional observations from a re-analysis of the deposited data

Results flagged for a closer look

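Dixon's test on the 54 groups of 4 arrays behind the 27 named members found 3 arrays far from the rest of their group, where chance gives about 1 in 20 groups. Gstm5 read 8.42 on WT array 1, the highest of its group. Ugt3a2 read 13.16 on RKO array 1, the highest of its group. Sult5a1 read 8.97 on WT array 2, the highest of its group.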

How the results depend on the processing

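The settings run were 17, of which the fit without both arrays numbered 1 was added after the data had been seen. Of the 27 named members 8 passed under at least 1 setting: Ugt3a1, Gstk1 and Gstm3 with array weights, without RKO array 1 and without both arrays numbered 1, Ugt2a3, Sult1b1 and Sult1c2 in the last 2 of these, and Gstt2 and Gstt3 in the last alone. Members past the threshold numbered 0 with all arrays at equal weight, 3 with array weights, 9 without both arrays numbered 1, and 0 to 7 with single arrays left out, where RKO array 1 gave the 7. Members with an unadjusted p under 0.05 numbered 8, then 18 with array weights, 14 after another quantile normalisation, 5 with arrays centred on their medians, 22 without both arrays numbered 1, and 4 to 18 with single arrays left out (4 without RKO array 3, 5 without RKO array 4). List genes past the threshold numbered 0, then 1 with array weights, 4 without both arrays numbered 1 and 0 to 3 with single arrays left out. The cause of these moves was not tested. Sult2a8 turned to -0.00014 with array weights and ranged from -0.088 to 0.147 with single arrays left out, Gsta4 from -0.155 to 0.039 and Mgst3 from -0.013 to 0.105. Over these settings the family medians kept a negative sign in the alpha (-0.182 to -0.046), mu (-0.332 to -0.17) and kappa (-0.439 to -0.266) classes and in UGT3 (-0.69 to -0.409). They changed sign in the other cytosolic (-0.032 to 0.093) and membrane-bound (-0.013 to 0.082) transferases, UGT2 (-0.06 to 0.085) and the sulfotransferases (-0.035 to 0.05).

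With the replicate number as a block 0 members passed and 11 had an unadjusted p under 0.05. Deviations of same-numbered arrays correlated at -0.093, -0.125, -0.04 and 0.0738, and 2 of 8 arrays correlated best with their own number, and the samples share only a number.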
